A study of Danio rerio with 12 samples.

Results

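The 36 genes described here encode enzymes of glycolysis and gluconeogenesis in the zebrafish kidney. They were chosen by gene symbol from a list of enzyme names that was drawn up with earlier results of these data known, by a rule that uses no measured value, and all 36 were matched among the 30238 genes in the deposited files. They cover 14 enzyme steps, and 13 of these steps are served by more than 1 of the genes. Step totals and isozyme shares are over these 36 genes alone, and some steps have further genes that they leave out. Kidneys came from adult zebrafish, namely 3 wild-type (WT) samples and 9 from heterozygous carriers of a pdx1 knockout (pdx1+/-). This is a homeobox gene needed for the pancreas and its insulin-producing beta cells. No treatment separated the groups, and the labels gave neither the strain, sex, age in months or pdx1 allele, nor whether a sample was 1 fish. P-values therefore measure the spread between these samples, which may be partly technical.

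Glycolysis splits glucose into pyruvate and yields ATP, and lactate dehydrogenase converts pyruvate to lactate and back. Gluconeogenesis runs most of the same reactions in reverse, but it needs its own enzymes, PEP carboxykinase, fructose-1,6-bisphosphatase and glucose-6-phosphatase, at the steps that glycolysis cannot reverse. In mammals the kidney and the liver are the main organs that make glucose, and within the kidney this takes place in the proximal tubule. The fish kidney also holds the main blood-forming tissue, so that tubule cells and blood cells contribute enzymes of the same steps. Because the teleost genome was duplicated, many mammalian enzyme genes have an a and a b copy in zebrafish.

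Each library held between 16041392 and 19483852 estimated counts. Markers of nephron (summed level 762.9 to 1345 TPM, a level scaled for transcript length and library size) and of blood formation (167.3 to 277.8 TPM) were present in every sample, with 5 of 5 markers of each list detected. The estimated counts of pdx1 were 14, 10 and 5.6 in the WT samples and 0 to 10.4 in the heterozygous samples, of which 5 had 0. The position of the mutation was not given, so these counts check the genotype labels weakly. Samples differed in ways that the genotype labels do not give: markers of hepatocytes stood out in heterozygous sample 4, and ddc, which encodes an aromatic amino acid decarboxylase, was at 1245 to 2086 TPM in 6 samples (WT 2 and heterozygous 1, 3, 4, 6 and 9) and at 33.9 to 68.3 TPM in the other 6. Reads of the ribosomal RNA gene took 4.10% to 5.64% of the counts in WT and 5.71% to 9.10% in heterozygous libraries. Their part in the genotype results was not tested.

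The enzyme genes spanned a wide range of mRNA levels. The mean over the 12 samples was at least 100 TPM for 12 genes, between 10 and 100 TPM for 15, and under 10 TPM for 9. The most abundant was gapdhs (324.5 ± 76.1 TPM, SD, n = 12), 1 of the 2 glyceraldehyde-3-phosphate dehydrogenase genes. It was followed by the phosphoglycerate mutase gene pgam1a (303 ± 66.4 TPM), the aldolase gene aldoaa (290.5 ± 55.9 TPM), the cytosolic malate dehydrogenase gene mdh1aa (260.8 ± 71.1 TPM) and the fructose-1,6-bisphosphatase gene fbp1b (213.9 ± 45.1 TPM). These neighbours in the order differed in mean by less than the larger of their SDs, and gapdhs exceeded pgam1a in 6 of 12 samples. The other genes of at least 100 TPM were gapdh, mdh2, pck1, eno3, pkma, ldhba and ldha, with means from 104.6 TPM (ldha) to 199.5 TPM (gapdh). Down the whole order, 4 of the gaps between neighbours were larger than the larger SD: ldhba over ldha, gpia over pgam1b, hk1 over pgam2, and pgam2 over aldoab.

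At the bottom of the order stood pkmb (0.446 TPM), gck (0.747 TPM), gpib (1.02 TPM), fbp2 (1.27 TPM), pfkmb (1.33 TPM), eno1b (1.53 TPM), tpi1a (1.70 TPM), aldoab (2.24 TPM) and pgam2 (3.82 TPM), all as means over 12 samples. Several of these are the copies that in mammals belong to skeletal muscle (pgam2, fbp2, pfkmb) or to liver and beta cells (gck). Of the 9, gpib, pfkmb, tpi1a, eno1b, pkmb and aldoab each have a partner copy at the same step with a higher mean.

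Hexokinases trap glucose in the cell as glucose-6-phosphate. Of the 3 hexokinase genes, hk2, the inducible form of insulin-responsive tissues in mammals, was the most abundant, at 27.1, 17.4 and 38.8 TPM in WT samples 1, 2 and 3. In the heterozygous samples it ranged from 16.98 to 51.9 TPM with a median of 22.0 TPM. The highest value was in heterozygous sample 2, with the other 8 heterozygous samples at or under 24.7 TPM, and WT sample 3 lay between. Levels of hk1, the broadly expressed form, were 10.3, 11.3 and 15.7 TPM in WT and 7.12 to 13.8 TPM in heterozygous samples (median 9.65 TPM). As a share of the hexokinase TPM, hk2 took 56.9% to 79.0%, and the lowest share was in heterozygous sample 4.

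The glucokinase gene gck, whose product senses glucose in liver and beta cells, was at or close to 0 except in 1 sample. It was at 0, 0 and 0.0375 TPM in WT samples 1, 2 and 3. Heterozygous sample 4 had 8.61 TPM (240 estimated counts), and the other 8 heterozygous samples had between 0 and 0.140 TPM, the highest of them from 4 counts. It fell outside the filter on low counts and was not tested between genotypes.

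Several further genes of sugar metabolism were highest in the same sample. The liver and red cell pyruvate kinase gene pklr was at 29.6 TPM in heterozygous sample 4 and at 12.7 to 22.1 TPM in the other 11. Of the 36 genes, gck and pklr are the 2 with their highest level in this sample. Another 3, pfkpa, pfkpb and gapdhs, had their lowest level there. Outside the 36 genes, the glucose-6-phosphatase gene g6pc1a.1 was at 5.79 TPM against at most 1.41 TPM elsewhere, and the liver glycogen phosphorylase gene pygl at 6.79 TPM against at most 0.745 TPM. The liver glycogen synthase gene gys2 (0.631 TPM against at most 0.124 TPM) and the lactate dehydrogenase gene ldhbb (10.4 TPM against at most 1.75 TPM) showed the same order. These 4 genes were singled out after their values were seen, and of the 110 genes in the lists of neighbouring pathways 8 were highest and 8 lowest in this sample. Among the lowest was gckr, the regulator of glucokinase in liver, at 0.0838 TPM against 0.163 to 2.29 TPM in the other 11.

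All 8 hepatocyte markers were also highest in heterozygous sample 4, and their summed level was 853.6 TPM there against 59.9 to 155.3 TPM in the other 11 samples. Fibrinogen alpha (fga) was at 57.2 TPM against at most 0.911 TPM, transferrin (tfa) at 275 TPM against at most 7.19 TPM, and serpina1l at 35.1 TPM against at most 0.453 TPM. In the other samples fabp10a made up most of the sum. The exocrine pancreas marker prss1 was at 15.8 TPM in this sample, at 50.0 TPM in heterozygous sample 8 and at most at 2.999 TPM in the other 10. Its list mates ela2, ela3l, ctrb.1 and cel.1 were likewise highest in heterozygous sample 8 and next in heterozygous sample 4. The remaining gene of the list, cpa5, did not follow them and is not read here as a sign of pancreas RNA. It was lowest in heterozygous sample 4 (117.5 TPM). Its highest levels were in WT samples 1 (397.0 TPM) and 3 (354.5 TPM) and heterozygous sample 5 (296.7 TPM), which also had the highest sums of neutrophil markers. The sum of the list was 161.7 TPM there, within 125.5 to 401.3 TPM over all 12 samples. In every sample cpa5 made up most of this sum, which therefore says little about the other genes of the list or about pancreas RNA. The part of these cell types in the gck and pklr values was not tested. Other gluconeogenic genes did not stand apart in that sample: pck1 was at 239 TPM within a range of 25.01 to 441 TPM in the others, and fbp1b at 225 TPM within 138 to 263 TPM.

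**Figure D1:**
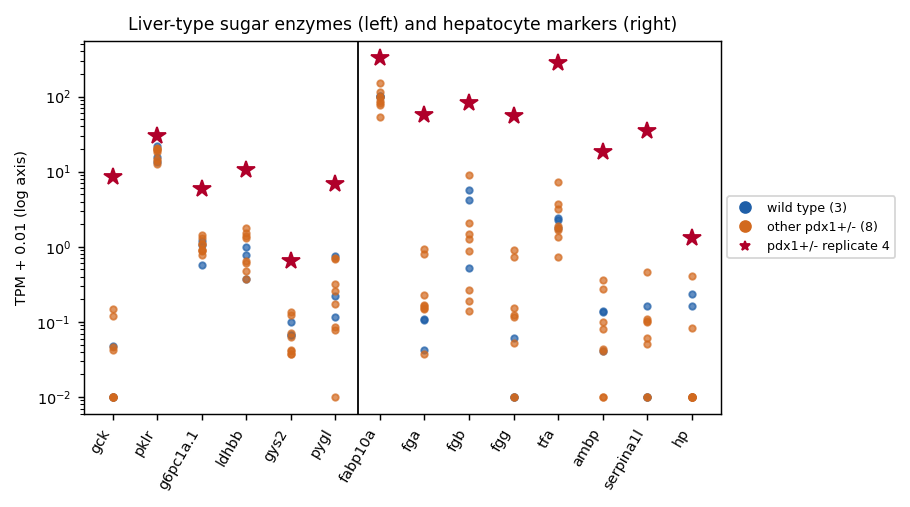
TPM + 0.01 on a log axis of 6 genes of sugar metabolism (left of the line) and 8 hepatocyte markers (right of it), with pdx1+/- sample 4 as a red star, WT samples in blue and the other pdx1+/- samples in orange. The star is the highest point for each of the 14 genes, of which g6pc1a.1, ldhbb, gys2 and pygl were picked after their values were seen. Of the 36 members, gck and pklr are drawn as the 2 that were highest in that sample. The members pfkpa, pfkpb and gapdhs, not drawn, were lowest there. Not drawn is gckr, which was lowest in that sample (0.0838 TPM against 0.163 to 2.29 TPM). The level of gck is 8.61 TPM at the star and at most 0.140 TPM elsewhere.

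Glucose-6-phosphate isomerase was nearly a 1-gene step. The gene gpia was at 45.4, 58.5 and 68.1 TPM in WT and at 45.8 to 65.3 TPM in heterozygous samples (median 58.3 TPM), and it made up 96.8% to 99.1% of the step. Its copy gpib stayed between 0.515 and 1.68 TPM.

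Phosphofructokinase, the committed step of glycolysis, was shared by several genes of similar level. The platelet-type genes pfkpa and pfkpb averaged 30.5 ± 5.96 and 17.03 ± 1.98 TPM (SD, n = 12), the muscle-type gene pfkma 15.7 ± 8.45 TPM and the liver-type gene pfklb 12.2 ± 3.45 TPM. A further liver-type gene outside the 36, pfkla, averaged 11.7 ± 1.80 TPM (SD, n = 12). The sum of the 5 member genes varied little, from 62.8 to 90.5 TPM (77.0 to 100.8 TPM with pfkla), while its makeup changed from sample to sample. In heterozygous sample 2 pfkpa supplied 59.98% and pfkma 5.62% of the member TPM, and in WT sample 1 pfkpa supplied 30.6% and pfkma 35.4%. With pfkla counted in, these shares were 50.9% and 4.76% in heterozygous sample 2 and 27.5% and 31.8% in WT sample 1.

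Levels of pfkma were 30.0, 4.28 and 18.01 TPM in WT samples 1, 2 and 3, and 4.10 to 27.1 TPM in heterozygous samples (median 13.9 TPM), a range of 7.32-fold over all 12. The low samples were heterozygous 2, WT 2 and heterozygous 3. The same 3 samples had the lowest summed levels of 8 erythrocyte markers, at 13170, 10960 and 20370 TPM, against 25000 to 57350 TPM in the other 9, and the highest sum was in WT sample 1, which also had the most pfkma. All 8 of these markers, hemoglobin genes included, were detected in every sample. Their part in the pfkma values was not tested, and in bulk RNA a change in the number of cells of a type and a change in the RNA per cell cannot be told apart.

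The other muscle-type phosphofructokinase, pfkmb, was at 8.71 TPM in heterozygous sample 5, 2.73 TPM in heterozygous sample 6 and 2.41 TPM in heterozygous sample 4. It was at 1.24, 0.260 and 0.115 TPM in WT samples 1, 2 and 3, and its other heterozygous values lay between 2.56e-09 and 0.248 TPM. Heterozygous sample 5 was also highest in pgam2 (6.26 TPM), aldoab (6.01 TPM) and pkmb (1.69 TPM), further members with low levels. It was likewise highest in gapdhs, pgk1 and ldhba, which are more abundant members. Its 15 skeletal muscle markers summed to 97.0 TPM, close to heterozygous sample 1 (102.9 TPM), while the other 10 samples had 11.7 to 60.6 TPM. Of these markers, the myosin light chain gene mylpfa was at 0 in all 12 samples. Creatine kinase ckma (16.4 TPM), ckmb, mylpfb, tnnt3b, atp2a1, neb and ttn.2 were highest in heterozygous sample 5. Highest in heterozygous sample 1 were tpma, pvalb1, pvalb2 and myhz2. The peak was in WT sample 2 for acta1b, in WT sample 3 for myhz1.1 and in heterozygous sample 4 for tnnt3a. Heterozygous sample 1 had the lowest pfkmb level of all samples (2.56e-09 TPM). The part of muscle RNA in these values was not tested.

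Aldolase cleaves fructose-1,6-bisphosphate. The main gene among the members was aldoaa, at 230.1, 319.0 and 418.3 TPM in WT and 222.5 to 339.4 TPM in heterozygous samples (median 278.8 TPM). The brain-type gene aldocb was at 53.2, 65.9 and 94.8 TPM in WT and 59.8 to 117.5 TPM in heterozygous samples (median 75.7 TPM). The WT samples thus spread more widely in aldoaa than the heterozygous ones, whose values lay inside or just under the WT range.

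Triosephosphate isomerase, which interconverts the 2 triose phosphates made by aldolase, behaved unlike the other steps. Its gene tpi1b was at 29.7, 0.234 and 0 TPM in WT samples 1, 2 and 3. In heterozygous samples 1 to 9, in this order, it was at 0.149, 0.153, 0.0810, 33.4, 38.0, 46.0, 0, 39.3 and 88.1 TPM. Thus 6 samples (WT 1 and heterozygous 4, 5, 6, 8 and 9) lay at 29.7 TPM or above and 6 at 0.234 TPM or below, with none between, and both genotypes occurred in both ranges. In estimated counts the upper range was 572.7 to 1769.5 and the lower range 0 to 4.32.

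The copy tpi1a did not fill the gap. It was at 1.30, 2.42 and 2.51 TPM in WT and at 0.523 to 2.68 TPM in heterozygous samples (median 1.70 TPM). The listed step total was therefore 1.70 to 2.76 TPM in the 6 low samples and 31.0 to 88.6 TPM in the 6 high samples. This is the widest range of the 14 steps, 52.1-fold, against 1.39-fold to 6.76-fold for the others. The estimated counts of tpi1b were not whole numbers in 10 of 12 samples, which occurs where reads fit more than 1 transcript, so its level carries more uncertainty than that of tpi1a, whose counts were whole in all 12. Which transcript entries were summed to each gene is not given in the sources used here, so a value near 0 is a listed value and does not show that the mRNA was missing. The TPM on entries outside the listed genes was 53488 to 72802 in the 6 high samples and 56744 to 67647 in the 6 low ones, and whether tpi1b reads lay on such entries was not tested.

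Few genes had a pattern like that of tpi1b. Likeness was measured as the ratio of the lowest level in its 6 high samples to the highest in its 6 low samples, on TPM + 0.1, over all 23732 tested genes. Of these, 6 genes, tpi1b included, had a ratio above 3, and 0 genes had a ratio above 3 in the opposite direction. The ratio was 89.1 for tpi1b, 14.6 for pafah1b3, 9.36 for cxcr3.2, 9.08 for leng8, 5.65 for zgc:92606 and 3.59 for cxcr3.1. Since the samples were split by tpi1b itself, these values are a description and have no test.

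All 5 of these genes lie near tpi1b on chromosome 16 in the gene order of the RefSeq annotation GRCz12tu. They are the 1st (leng8) and 2nd (zgc:92606) tested genes on one side of tpi1b, and the 9th (cxcr3.1), 11th (cxcr3.2) and 14th (pafah1b3) on the other. The other 25 of the 30 nearest tested genes had a ratio of 3 or less. Among them were the glucose transporter gene slc2a3b (0.332), at 13.4 to 40.6 TPM, and the direct neighbour lpcat3 (0.0952). The level of lpcat3 was only 0 to 1.09 TPM, so its ratio says little. Among the 25, tlr21 (ratio 1.22) also split the samples in the same way, by a smaller gap. Such small gaps were not rare: of all 23732 tested genes, 31, tpi1b included, split the samples this way by any gap, and 58 the opposite way. The level of tlr21 was 0.411 to 2.04 TPM in the 6 high samples and 0.155 to 0.32 TPM in the 6 low samples. The level of leng8 was 6.98 to 19.1 TPM in the 6 high samples and 0.280 to 0.679 TPM in the 6 low samples. For pafah1b3, a subunit of platelet-activating factor acetylhydrolase, the ranges were 3.9 to 9.7 TPM and 0 to 0.173 TPM. Heterozygous sample 9 had the highest level of all 6 genes.

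**Figure D2:**
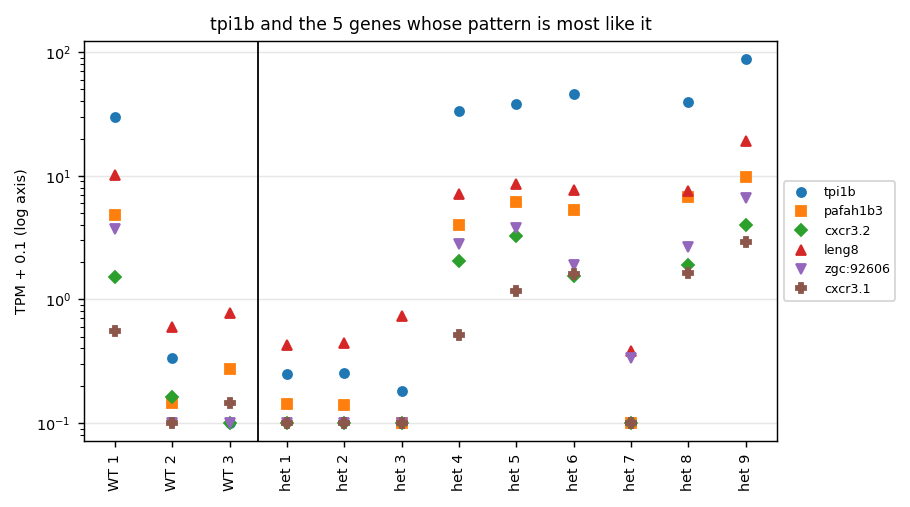
TPM + 0.1 on a log axis for tpi1b and the 5 genes most like it, in each of the 12 samples (WT left of the line). All 6 genes are high in WT 1 and heterozygous 4, 5, 6, 8 and 9 and low in the other 6 samples, and tpi1b is at 29.7 to 88.1 TPM in the former and at 0 to 0.234 TPM in the latter.

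Glyceraldehyde-3-phosphate dehydrogenase was supplied by both of its genes. In mammals the Gapdhs form is restricted to sperm, but here gapdhs was at 274.5, 307.5 and 407.2 TPM in WT and 233.8 to 477.0 TPM in heterozygous kidneys (median 295.9 TPM), while 4 germ cell markers summed to between 0.0288 and 0.695 TPM. The level of gapdh, often used as a reference gene, was 190.5, 228.8 and 206.5 TPM in WT and 135.7 to 264.5 TPM in heterozygous samples (median 184.5 TPM). Heterozygous samples 4, 6 and 9 had the most gapdh and the least gapdhs, and the sum of both genes lay between 465.0 and 644.6 TPM in all samples, a range of 1.39-fold. The gapdh share was 26.0% to 52.3%, and heterozygous samples 4, 6 and 9 were the 3 in which it was above 42.7%, the highest share of the other samples.

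**Figure D3:**
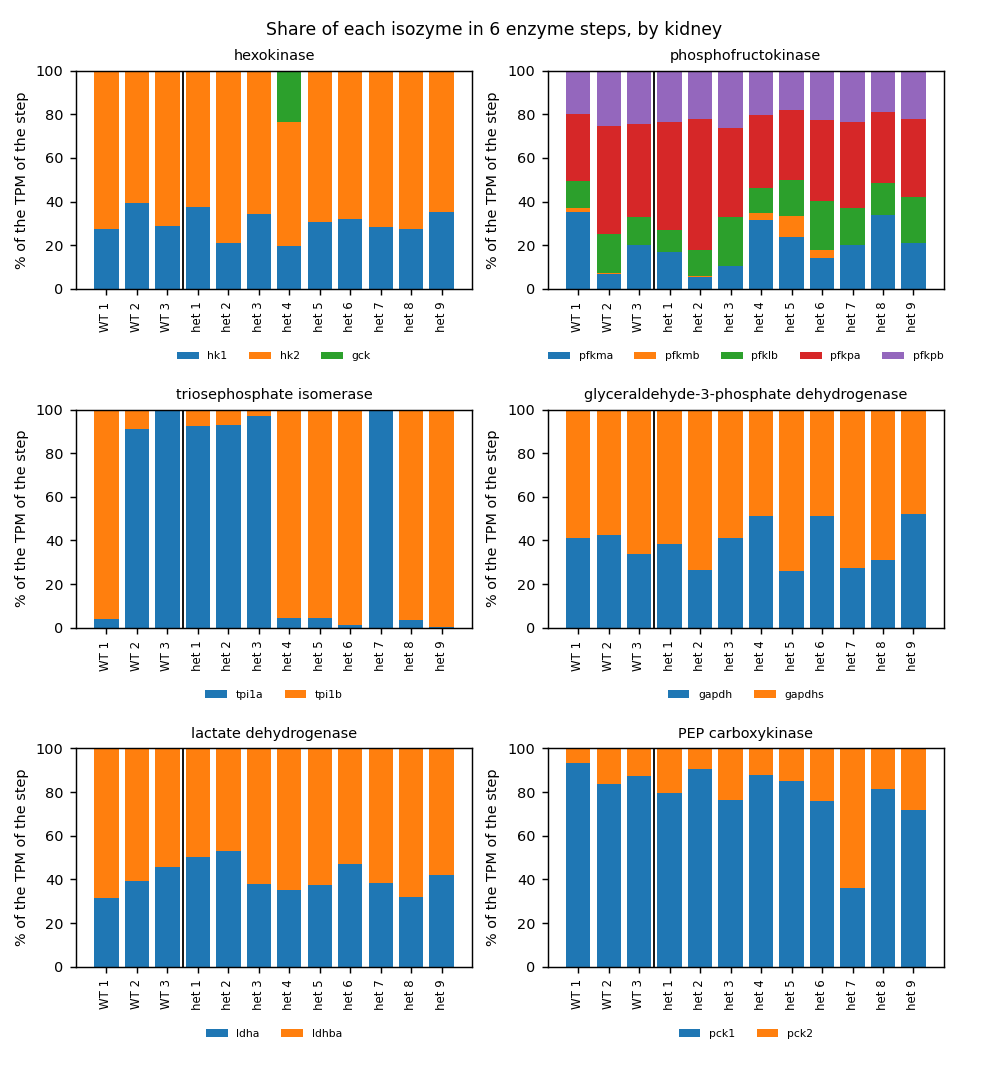
Stacked bars give the share of each isozyme in the TPM of its step, in percent, for 6 steps and 12 samples (WT left of the line). The tpi1b share switches between 0% to 8.82% and at least 95.5%, pck1 falls to 35.9% in heterozygous sample 7, and the pfkma and gapdh shares vary more gradually.

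In the lower part of glycolysis, step totals ranged from 1.64-fold to 1.99-fold over the 12 samples, from phosphoglycerate kinase to lactate dehydrogenase. Phosphoglycerate kinase has a single gene here, pgk1, at 71.2, 86.8 and 102.6 TPM in WT and 63.5 to 103.9 TPM in heterozygous samples (median 80.6 TPM). Of phosphoglycerate mutase, pgam1a was at 227.2, 311.5 and 442.7 TPM in WT and 206.4 to 388.7 TPM in heterozygous samples (median 297.9 TPM), which was 84.2% to 91.1% of the step. Its copy pgam1b averaged 37.4 ± 4.45 TPM (SD, n = 12).

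Enolase was led by eno3, the muscle-type form of mammals, at 168.9, 171.5 and 253.5 TPM in WT and 150.7 to 180.1 TPM in heterozygous samples (median 168.1 TPM). The value of WT sample 3 stood above the other 11, which all lay at or under 180.1 TPM. The ubiquitous form eno1a averaged 60.4 ± 15.3 TPM (SD, n = 12), and eno3 held 67.6% to 79.7% of the step. Heterozygous sample 1, with the highest muscle marker sum (102.9 TPM), had the lowest eno3 level (150.7 TPM). Next lowest in eno3 was heterozygous sample 9 (152.4 TPM), which had the lowest muscle marker sum (11.7 TPM). The part of muscle RNA in the eno3 levels was not tested.

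Pyruvate kinase makes the last ATP of the pathway. Its main gene pkma was at 157.6, 159.6 and 233.5 TPM in WT and 122.8 to 200.2 TPM in heterozygous samples (median 141.5 TPM). It was 81.0% to 94.4% of the step, with the lowest share in heterozygous sample 4, where pklr took 18.7%.

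Lactate dehydrogenase had 2 abundant genes. The heart-type gene ldhba was at 149.2, 162.7 and 193.2 TPM in WT and 101.5 to 199.8 TPM in heterozygous samples (median 144.4 TPM). The muscle-type gene ldha was at 68.7, 104.7 and 162.1 TPM in WT and 81.6 to 118.8 TPM in heterozygous samples (median 113.3 TPM). The ldhba share ranged from 47.2% in heterozygous sample 2 to 68.5% in WT sample 1, so that either gene could lead. Heterozygous sample 2, which had the most hk2, was also highest in pfkpa (43.7 TPM), aldocb (117.5 TPM) and the ldha share (52.8%). These were named after their values were seen. Of the 36 members, 3 had their highest level in that sample and 7 their lowest, namely pfkma, gapdh, pklr, ldhba, fbp1a, fbp1b and mdh1aa. That sample had the lowest summed level of proximal tubule markers, 774.6 TPM against 1256 to 2438 TPM in the other 11; without slc22a6l, the most abundant of the 8 markers, it was still lowest there (550.0 TPM against 598.1 to 1164 TPM). All 8 were detected in every sample. Their part in these values was not tested.

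Of the gluconeogenic enzymes, PEP carboxykinase varied most. The cytosolic gene pck1, a hormone-controlled gene of liver and kidney in mammals, was at 440.7, 137.6 and 222.2 TPM in WT samples 1, 2 and 3. In heterozygous samples it ranged from 25.01 to 239.6 TPM with a median of 144.5 TPM. The lowest value was in heterozygous sample 7 and the highest of all in WT sample 1, a range of 17.6-fold, and the other 10 samples lay between 89.6 and 239.6 TPM. The 8 proximal tubule markers had their highest sum, 2438 TPM, in WT sample 1, of which slc22a6l alone gave 1561 TPM. Without that gene, left out after its values were seen, the sum was 876.6 TPM in WT sample 1, 902.2 TPM in heterozygous sample 7 and highest in heterozygous sample 6 (1164 TPM).

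The mitochondrial gene pck2 was steadier, at 30.9, 26.4 and 31.5 TPM in WT and 23.3 to 44.7 TPM in heterozygous samples (median 37.4 TPM). Its highest level was in heterozygous sample 7, the sample with the least pck1, and there it supplied 64.2% of the step. In the other 11 samples pck1 supplied 71.6% to 93.5%.

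Fructose-1,6-bisphosphatase was nearly all fbp1b, at 160.8, 249.5 and 262.4 TPM in WT and 137.6 to 262.7 TPM in heterozygous samples (median 216.4 TPM). It was 90.5% to 96.2% of the step, while fbp1a averaged 11 ± 2.16 TPM and the muscle-type gene fbp2 1.27 ± 0.468 TPM (SD, n = 12). The lowest fbp1b level was in heterozygous sample 2, which, as given above, also had the lowest proximal tubule marker sum. In that sample pck1 was at 239.6 TPM, the highest level of the heterozygous samples. The part of tubule cells in these values was not tested. Malate dehydrogenases carry reducing equivalents and oxaloacetate between mitochondria and cytosol. The cytosolic gene mdh1aa was at 248.0, 354.3 and 272.4 TPM in WT and 148.4 to 338.6 TPM in heterozygous samples (median 275.6 TPM). The mitochondrial gene mdh2 was at 181.6, 202.6 and 209.2 TPM in WT and 161.7 to 200.1 TPM in heterozygous samples (median 175.6 TPM), and it had the narrowest range of all members, 1.29-fold.

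Within the 9 heterozygous samples, the coefficient of variation ran from 6.45% (eno3), 6.69% (mdh2) and 7.97% (pgam1b) to 43.5% (hk2), 48.9% (pck1), 49.0% (pfkma) and 111% (tpi1b). Its median was 21.6% over the 27 members with a mean of at least 10 TPM, and 17.1% over all 8606 tested genes of that level (quartiles 12.4% and 25.3%). Of the 27, WT sample 3 had the highest level in 10, and 22 of its levels exceeded the mean of the gene. Its median deviation from the mean was 0.26 on this scale over these members and 0.03 over all tested genes with a mean of at least 10 TPM. Heterozygous sample 5 was next, at 0.20 for the members and 0.02 for all tested genes of that level. Neutrophil markers, of which 3 of 4 were matched, summed to 5366 TPM in WT sample 3, the highest of the 12 samples, and to 4313 TPM in heterozygous sample 5. WT sample 1, at 4363 TPM, had a median deviation of 0.00 for the members. The part of neutrophils in these levels was not tested.

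The comparison of genotypes asks whether loss of 1 copy of pdx1 goes along with other levels of these enzymes in the kidney. No enzyme gene passed the threshold. In edgeR's quasi-likelihood test with Benjamini-Hochberg adjustment over 23732 genes, 0 of 35 tested members were called at an adjusted p of 0.05, against 1 of all genes (0.00421%). The lowest adjusted p of a member was 0.910, and 0 members were called when any 1 sample was left out. At an unadjusted p under 0.05 there were 0 members, against 5.68% of all genes, and DESeq2 also called 0 members, against 0.247% of all genes. Levels of the 2 genotypes overlapped for all 35 members, where 1.40% of all genes did not overlap. With 3 WT samples, a p above the threshold does not show that levels were equal.

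The member with the smallest p was eno3, with a log2 fold change (heterozygous against WT) of -0.21 ± 0.11 (approximate SE, edgeR, unadjusted p = 0.0880). Its mean was 165.5 ± 10.7 TPM in heterozygous (SD, n = 9) and 198.0 ± 48.1 TPM in WT samples (SD, n = 3), of which WT sample 3 had the highest level. Without that sample the log2 fold change of eno3 was -0.02. The value for pck1 was -0.81 ± 0.53, with means of 149.4 ± 73.0 TPM (SD, n = 9) and 266.8 ± 156.4 TPM (SD, n = 3), and without WT sample 1 it was -0.17. For pck2 it was 0.34 ± 0.20, for fbp2 -0.54 ± 0.32, for pkma -0.25 ± 0.16, for hk1 -0.24 ± 0.19 and for eno1a -0.21 ± 0.21. The others among the 10 members with the lowest p were mdh2 (-0.12 ± 0.09), pfkpb (-0.13 ± 0.10) and aldocb (0.21 ± 0.19).

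Main isozyme here means the member with the highest mean TPM at its step, genes outside the 36 not counted. Of those at the other steps, aldoaa had a log2 fold change of -0.15 ± 0.15, hk2 of -0.14 ± 0.31, mdh1aa of -0.16 ± 0.27 and ldhba of -0.12 ± 0.22. Values for pgam1a (-0.09 ± 0.19), pgk1 (-0.05 ± 0.15), fbp1b (-0.04 ± 0.19), pfkpa (-0.02 ± 0.16), gapdhs (0.02 ± 0.22) and gpia (0.04 ± 0.12) lay closer to 0. Each of these values, from aldoaa to gpia, was smaller in size than its standard error, for aldoaa only slightly. For tpi1b, with its 2 ranges within both genotypes, the value was 1.45 ± 2.0, and it was 8.03 without WT sample 1, the only WT sample in the upper range. Its genotype difference is therefore not determined by these samples.

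Of the 35 members 12 were higher and 23 lower in heterozygous samples, with a median log2 fold change of -0.07. Over all genes 48.3% were lower and the median was 0.01. This lean towards lower values depended on WT sample 3: without it 16 of 35 members were lower and the median was 0.06. With the ddc range as covariate 19 of 35 were lower (median -0.03), and in the other alternative fits 23 to 26 were lower. Without WT sample 1 or 2, or any 1 heterozygous sample, between 21 and 24 were lower.

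**Figure D4:**
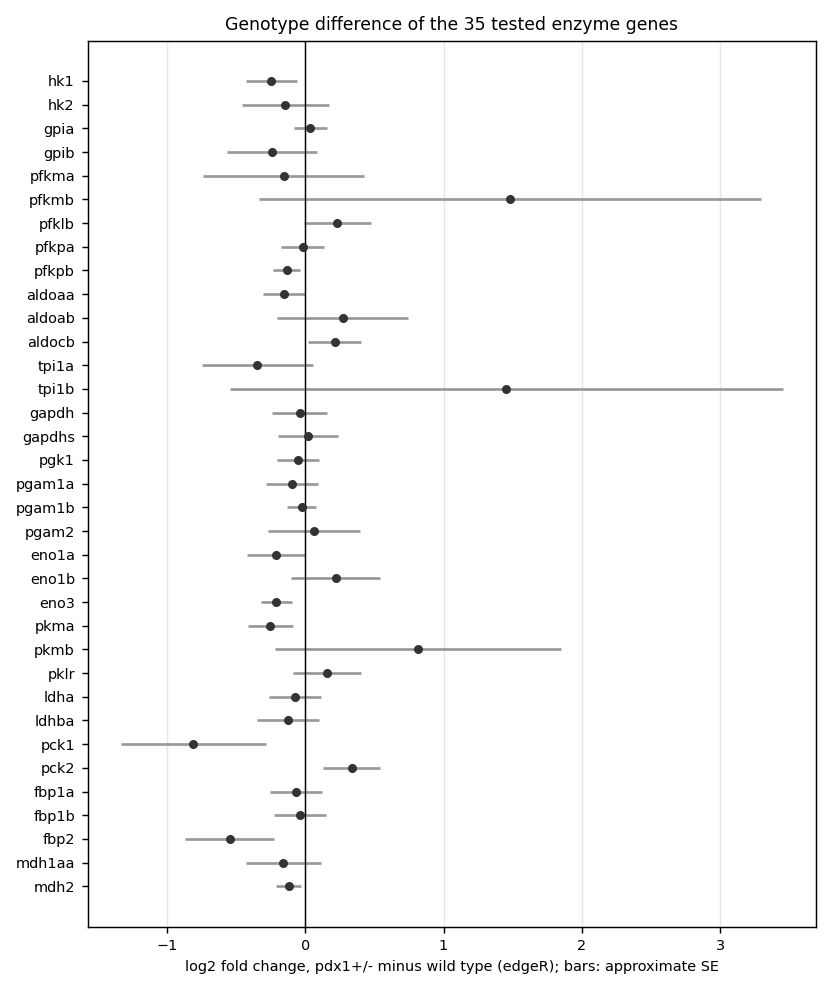
Log2 fold change, heterozygous minus WT, of the 35 tested enzyme genes (points) with the approximate SE from edgeR (bars). All but a few points lie close to 0, and the widest bars belong to tpi1b (1.45 ± 2.0), pfkmb (1.48 ± 1.81) and pkmb (0.82 ± 1.03).

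Isozyme shares were compared between genotypes by an exact two-sided permutation test over all 220 ways to draw 3 of the 12 samples, with 0.00455 as the smallest possible p, for the main isozyme of 13 steps. None passed after Benjamini-Hochberg adjustment. The share of aldoaa had the smallest p: it was 80.6%, 82.6% and 81.2% in WT samples 1, 2 and 3 and 71.4% to 80.0% in heterozygous samples (median 78.4%). The groups did not overlap, with means of 81.4% ± 1.03 (SD, n = 3) and 77.4% ± 2.70 (SD, n = 9), a difference of -4.02 points (exact permutation p = 0.0409, adjusted p = 0.532). The aldocb share made up the difference, at 18.03% ± 0.850 in WT (SD, n = 3) and 21.9% ± 2.91 in heterozygous samples (SD, n = 9).

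The pck1 share was 88.3% ± 4.82 in WT (SD, n = 3) and 76.1% ± 16.2 in heterozygous samples (SD, n = 9; exact permutation p = 0.250, adjusted p = 0.959). That of tpi1b was 34.9% ± 53.0 in WT and 55.9% ± 49.0 in heterozygous samples (exact permutation p = 0.536, adjusted p = 0.959). The shares of the other 10 main isozymes differed by between -2.65 points (pkma) and 0.70 points (gapdhs), with adjusted p of 0.959 each (exact permutation).

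In 8 lists of neighbouring pathways, edgeR called 0 of 105 tested genes and DESeq2 0, with 5 genes at an unadjusted edgeR p under 0.05 (4.76%, a share no higher than the 5.68% of all genes). Among 18 other genes of glycolysis and gluconeogenesis, 10 were higher and 8 lower (median log2 fold change 0.04), with 1 unadjusted p under 0.05. That gene was g6pc1a.2, the abundant glucose-6-phosphatase of these kidneys, which releases free glucose. It was at 299.3, 294.9 and 199.7 TPM in WT and 88.9 to 263.3 TPM in heterozygous samples, with a log2 fold change of -0.55 ± 0.23 (edgeR, unadjusted p = 0.0335, adjusted p = 0.850). Heterozygous sample 1 lay inside the WT range, as did heterozygous sample 5 (222.9 TPM), while the other 7 lay below it. Next in p was mdh1ab, the copy of mdh1aa, at -0.36 ± 0.20. Of this list, g6pc3 (12.2 TPM, 0.05 ± 0.16), pcxa (11.8 TPM, -0.13 ± 0.18), the pyruvate carboxylase that starts gluconeogenesis from pyruvate, and ldhd (11.8 TPM, 0.17 ± 0.23), a D-lactate dehydrogenase, were lower in mean level than g6pc1a.2 (198.0 TPM).

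In glycogen metabolism 7 of 18 tested genes were higher and 11 lower, with a median of -0.06. The gene with the smallest p was gyg1a, glycogenin, which primes glycogen synthesis. It was at 50.3, 60.4 and 46.7 TPM in WT and 35.5 to 47.1 TPM in heterozygous samples, with a log2 fold change of -0.35 ± 0.10 (edgeR, unadjusted p = 0.00332, adjusted p = 0.627). The branching enzyme gene gbe1b had -0.30 ± 0.12 (edgeR, unadjusted p = 0.0209, adjusted p = 0.815). In the citric acid cycle 4 of 17 tested genes were higher and 13 lower, with a median of -0.07, led in p by ogdha, a subunit of 2-oxoglutarate dehydrogenase (-0.24 ± 0.09), and idh3b, a subunit of isocitrate dehydrogenase (-0.48 ± 0.23).

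Among 8 pentose phosphate genes 3 were higher and 5 lower, with a median of -0.06. The lactonase gene pgls had a log2 fold change of 0.35 ± 0.13 and rpia, the ribose-5-phosphate isomerase, -0.52 ± 0.37, while pgd, the 6-phosphogluconate dehydrogenase, had -0.16 ± 1.75. The wide error of pgd came with a count of 0 in 4 samples (WT 3 and heterozygous 1, 2 and 3) and 40.8 to 131.9 TPM in the other 8, a split singled out after its values were seen and with the same limit on listed zeros as for tpi1b. All 4 of these samples are among the 6 with little tpi1b. The rest of those 6 had ample pgd: WT sample 2 had the highest level of all samples (131.9 TPM) and heterozygous sample 7 had 71.2 TPM.

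Genes for pyruvate entry into mitochondria were higher in 6 and lower in 9 of 15 (median log2 fold change -0.05). Lowest in p there were pdp1, a phosphatase of pyruvate dehydrogenase (-0.38 ± 0.25), and pdk4, a kinase of the same complex (-0.32 ± 0.25). Regulators of glycolysis were higher in 6 and lower in 7 of 13 (median -0.03), with pfkfb2a (-0.22 ± 0.11) and pfkfb4b (-0.46 ± 0.23), which set the level of fructose-2,6-bisphosphate, lowest in p. Fructose and galactose entry had 5 of 9 higher (median 0.08), with gale at 0.43 ± 0.20 and galm at -0.61 ± 0.41. Lactate and pyruvate transport had 5 of 8 higher (median 0.15), with the monocarboxylate transporter gene slc16a7 at 0.95 ± 0.45 and emb at -0.52 ± 0.29. In these 4 lists 0 genes had an unadjusted edgeR p under 0.05.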

How the data were processed

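Total RNA from 12 adult zebrafish kidney samples (3 wild type, 9 pdx1+/-) was sequenced on BGISeq-500 libraries. Trim Galore 0.6.4, kallisto (version given as 0.4.6) and the build GRCz11 are named in the submitters' processing notes. The annotation, settings, use of strand and the summing of transcripts to genes are not given in the sources used here. Deposited by the authors were estimated counts, which are not normalized, and TPM values, scaled by the authors for length and depth, for 30238 Entrez genes. Deposited TPM summed to 927198 to 946512 per sample, so 53488 to 72802 TPM lay on entries not listed. Between 42.2% and 43.7% of the deposited estimated counts in a sample were not whole (tolerance 0.001). Kallisto divides reads that fit several transcripts, so that genes with near-identical copies are uncertain, and 17 of the 36 enzyme genes had such counts in at least 1 sample. Symbols came from a RefSeq gene table (GRCz12tu), which named 25812 of the IDs. It was used for names and gene order.

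Estimated counts were rounded and tested in R 4.3.3 with edgeR 4.0.16. The steps were filterByExpr (minimum count 10; 23732 genes left), TMM scaling and a robust quasi-likelihood F test on all 12 samples without covariates, with Benjamini-Hochberg adjustment and a threshold of 0.05. The SE of a log2 fold change is approximate (its absolute value over the root of F). Levels and isozyme shares used TPM. Coefficients of variation and ranges carry no test. A floor of 3 counts is 0.156 to 0.184 CPM, which covers counting error only. Simulated counts with known changes served to test this procedure.

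The members, marker lists and pathway lists were chosen with earlier results of these data known. All members are named with levels. Fold changes are given for the 10 members with the smallest p, the main isozyme of each step, up to 2 genes with the smallest p of each pathway list and the 5 other enzymes with the highest level, 1 of which is not reported here; others are said to be chosen after their values were seen. Alternatives were RLE scaling, no filter, DESeq2 1.42.0, limma 3.58.1 (voom, or trend on log2 of TPM plus 1 or 0.1), a surrogate variable from sva 3.50.0, the ddc range or the replicate number as a covariate, a threshold of 0.1, and each sample left out.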

Additional observations from a re-analysis of the deposited data

Results flagged for a closer look

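Among the 9 heterozygous samples, the highest or lowest value of each of the 36 genes and 13 isozyme shares was compared with its neighbour. Dixon's criterion was used (critical value 0.493 for 9 samples), which chance alone passes in about 1 group in 20 when values are normally distributed. It was applied to TPM and shares without transformation, and some genes, such as gck and pfkmb, lay near 0 in most samples. That rate therefore need not hold here. In 8 cases a sample stood apart. Heterozygous sample 4 stood apart in gck (8.61 TPM, with the other 8 at 0 to 0.140 TPM) and in pklr (29.6 TPM, with the others at 12.7 to 20.4 TPM), and it is the sample with the high hepatocyte markers. Heterozygous sample 5 stood apart in pfkmb (8.71 TPM, others at most 2.73 TPM), aldoab (6.01 TPM, others 1.19 to 3.27 TPM) and pkmb (1.69 TPM, others 0 to 0.800 TPM). For hk2 it was heterozygous sample 2 (51.9 TPM, others 16.98 to 24.7 TPM). The pck1 share of PEP carboxykinase was 35.9% in heterozygous sample 7 and 71.6% to 90.8% in the others. The gpia share was 96.8% in heterozygous sample 9 and 98.0% to 99.1% in the others. The split of tpi1b into 2 ranges of several samples each is not of the kind this criterion finds.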

How the results depend on the processing

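The count of 0 called members held in all 10 alternatives, 1 of them a threshold of 0.1 in the main fit. It also held without any 1 of the 12 samples, and the lowest adjusted p was 0.578. The count over all genes, 1, became 60 with DESeq2, 3 on log2(TPM + 0.1), 3 with the ddc range as covariate, 3 at a threshold of 0.1 and 0 with the replicate block; leaving out 1 sample gave 1 to 4 (2 without heterozygous 2, 4 without heterozygous 5), and the cause was not tested.

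No log2 fold change of a member was past the threshold. Some changed sign, among them, with the replicate block, hk1 (-0.24 in the main fit), pck2 (0.34) and tpi1b (1.45). The value of gapdhs became -0.005 with limma-voom and -0.051 on log2(TPM + 1) and on log2(TPM + 0.1), and that of gpia -0.003 on both TPM scales. With the ddc range as covariate hk2 became 0.032, pfkpa 0.008 and pgk1 0.001. With the replicate block, hk1 became 0.09, hk2 0.138, pfkpa 0.194, tpi1b -5.52, gapdhs -0.025, pgam1a 0.062 and pck2 -0.01. Heterozygous samples 4 to 9 have no WT sample of the same number. The genotype difference in the block fit therefore rests on samples 1 to 3 of each genotype. Deviations of samples with the same replicate number correlated at -0.216, -0.159 and 0.0964, and no WT sample correlated best with its own number. The labels state no pairing, and whether equal numbers share a batch cannot be told from these correlations. The block called 0 members, 3 of them with an unadjusted p under 0.05.

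With 1 sample left out, fold changes of these genes crossed 0: aldoaa (-0.311 to 0.056), fbp1b (-0.199 to 0.068), gapdhs (-0.057 to 0.177), gpia (-0.069 to 0.156), hk2 (-0.392 to 0.141), pfkpa (-0.106 to 0.109), pgam1a (-0.27 to 0.16) and pgk1 (-0.137 to 0.063). Differences of shares, in points, did so for eno3 (-0.53 to 0.98), fbp1b (-1.31 to 1.36), gapdhs (-1.08 to 3.43), gpia (-0.03 to 0.62), hk2 (-4.20 to 1.77), ldhba (-6.04 to 1.01), mdh1aa (-3.15 to 0.38), pfkpa (-5.98 to 3.46) and pgam1a (-1.26 to 0.78), and for hk2 computed on counts (0.50). The share of aldoaa among the member aldolase genes stayed lower in heterozygous samples, by 3.26 to 4.63 points (adjusted p 0.236 to 0.982). The number of WT samples, 3, limits the precision.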
